A study of Mus musculus with 2 samples.

Results

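The interferon-gamma induced GTPases described here are 10 mouse genes, the guanylate binding proteins Gbp2, Gbp3, Gbp4, Gbp5, Gbp6 and Gbp7 (GBP) and the immunity-related GTPases Irgm1, Irgm2, Igtp and Iigp1 (IRG). They were taken by symbol, and all 10 were found in both libraries. Single-cell transcripts were counted in C57BL/6J mice bearing tumours of EO771-HEVM3, a derivative of the mouse breast cancer line EO771. HEVM3 cells had been passed repeatedly through mice to enrich those that reach the lung by way of the high endothelial venules of lymph nodes. One library held primary tumours and the other held paired lymph nodes, each pooled from 6 mice, and no label ties a cell to a mouse. The study's methods give the age of its mice only as they were obtained, at a few weeks, and the age at collection and the time after implantation of these libraries are not given in the sources used here. Tumours and lymph nodes were digested with different enzymes and for different times, so tissue and digestion cannot be told apart. With 1 library per tissue there is no replicate, and differences are given without a test. The 10 genes were selected on measured values of these libraries, the lower levels of interferon response genes in lymph node than in primary tumour cancer cells. Their levels and ratios between these cells are therefore a description and support nothing.

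GBPs are large GTPases related to dynamin that assemble on vacuoles and on bacteria in the cytosol of infected cells. IRG proteins act on intracellular membranes. Irgm1, Irgm2 and Igtp (also called Irgm3) are regulators that hold effector IRG proteins such as Iigp1 (Irga6) inactive on the membranes of the cell itself. Interferon-gamma signals through its receptor and the kinases JAK1 and JAK2, and GAS and ISRE are DNA elements through which interferons act on their target genes. IRF1, which interferon-gamma induces, and the type I interferon factor ISGF3 bind ISRE, so both interferon types can induce genes of this family.

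Promoter windows of 5 members are shown because they carry the motifs of these factors. They include Gbp3, whose levels differed from those of the other members, and the neighbours Igtp and Irgm2. The sequences are from RefSeq, build GRCm38.p6, read 5′ to 3′ on the strand of the gene. Capitals mark matches, on either strand, to ISRE (GAAA, 2 bases of any kind, GAAA) or GAS (TTCNNNGAA). Matches of one motif that overlap are drawn as one run. The windows lie at chr3:142620594-142620623 (Gbp2, plus strand), chr3:142559939-142560025 (Gbp3, plus), chr3:142530223-142530312 (Gbp7, plus), chr11:58199462-58199551 (Igtp, plus) and chr11:58214853-58214942 (Irgm2, plus). The Gbp2 window spans the start of its gene in the GENCODE annotation used below, at 142620602, and lies in part in an annotated exon.
Gbp2: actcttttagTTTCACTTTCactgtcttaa
Gbp3: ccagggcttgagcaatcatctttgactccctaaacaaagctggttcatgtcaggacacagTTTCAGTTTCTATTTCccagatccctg
Gbp7: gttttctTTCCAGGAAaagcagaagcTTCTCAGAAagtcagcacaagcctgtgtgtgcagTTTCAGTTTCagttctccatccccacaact
Igtp: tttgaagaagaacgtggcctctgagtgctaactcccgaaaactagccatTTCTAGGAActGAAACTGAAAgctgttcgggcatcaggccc
Irgm2: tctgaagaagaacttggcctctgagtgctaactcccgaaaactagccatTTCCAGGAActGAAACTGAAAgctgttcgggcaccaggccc

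In the 250 bases before the RefSeq start, all 7 members with an entry held ISRE (Gbp2, Gbp3, Gbp5, Gbp7, Irgm1, Irgm2 and Igtp). A second start entry of Gbp3 held neither motif. GAS was present in 4 of the 7 (Gbp5, Gbp7, Irgm2 and Igtp). Of 32851 promoters of the same length in the table, 2.98% held ISRE, 7.02% held GAS and 0.332% held both. Igtp and Irgm2 shared an identical run of 55 bases in these stretches. Of 10 other GBP and IRG genes with an entry, 5 held ISRE and 4 held GAS. A match is a description of letters and not evidence of binding. There was no entry for Gbp4, Gbp6 and Iigp1.

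The deposited libraries held 12427 primary tumour cells with 173317475 UMIs (unique molecular identifiers, 1 per captured transcript) and 11617 lymph node cells with 122207852 UMIs. Limits on detected genes and mitochondrial UMIs and the removal of doublets left 8756 and 9689 cells. The upper limit of 6000 genes took out more lymph node than primary tumour cancer cells, which without it numbered 1319 and 6749 and not 607 and 6116, and without it the log2 ratios of Gbp2 and Iigp1 given below were −6.46 and −6.14 in place of −5.66 and −4.52. Cell classes were rebuilt by clustering without the members and the interferon lists, and the class names mean resemblance by marker genes only. Cancer cells were 6116 of the primary tumour and 607 of the lymph node cells, with medians of 14076 and 35073 UMIs per cell. Their epithelial markers were present in both, Krt8 at 1747 and 1048 and Krt18 at 1549 and 1791 counts per 1000000 UMIs (CPM), in the order primary tumour and lymph node. The natural killer cell gene Ncr1 was at 0.010 and 0 CPM and the dendritic cell gene Flt3 at 0.041 and 0.049 CPM. The leukocyte gene Ptprc was at 2.94 and 11.1 CPM, 0.206% and 1.10% of its level in T cells of the same library. The T cell gene Trbc2 stood at 17.1 CPM in primary tumour and 44.5 CPM in lymph node cancer cells, against 993 and 1306 CPM in T cells, the highest share of its source among the leukocyte genes examined. Free RNA at that share of a member's highest level in another class of the library would give less than the lower bound of its cancer cell level for all 10 members in the primary tumour and for 8 in the lymph node. The other two were Gbp2, at 2.51 CPM where it would give 2.83 CPM, and Gbp5, at 0.442 CPM where it would give 1.35 CPM. Of the 607 lymph node cancer cells, 510 were in cluster 19, led by Tff2, Krt19 and Fam25c. Only 1 primary tumour cell was, so this cluster may stand for the library rather than for a type of cell. The libraries shared 31 barcodes among kept cells, 5 of them in lymph node cancer cells, and without these cells the log2 ratio of the 10 members in cancer cells was −1.77, as with them.

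In the GRCm38 gene annotation (GENCODE M21), Gbp5, Gbp7, Gbp3 and Gbp2 lie side by side on the plus strand of chromosome 3 within 144 kb, from 142493978 to 142638008. Gbp4 (105115767 to 105139586) and Gbp6 (105270702 to 105293698) lie on the minus strand of chromosome 5. On chromosome 11, Igtp (58199556 to 58207591) and Irgm2 (58199618 to 58222782) overlap on the plus strand, and Irgm1 (48861968 to 48871683) lies apart on the minus strand. Iigp1 (60376027 to 60392634) lies on the plus strand of chromosome 18. Droplet libraries of this kind count the 3′ end of transcripts. In the last 500 bases of Gbp6, 77.8% of 50-base words also occurred in Gbp9, Gbp10 or Gm43302, so the counts of Gbp6 are uncertain. The share was 6.43% for Gbp4 and 0 for Gbp2, Gbp3, Gbp7, Igtp, Irgm2 and Iigp1. Counts were not divided by length, since a transcript is counted once at its 3′ end.

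In cancer cells, 9 of the 10 GTPase genes were at least 4-fold lower in the lymph node than in the primary tumour, and Gbp3 was the exception. Summed over the 10 genes, the level was 839 CPM [834 to 845] in the primary tumour and 247 CPM [239.8 to 253] in the lymph node, a log2 ratio of −1.77 [−1.81 to −1.73]. Without Gbp3 the sum was 539 CPM [535 to 544] against 32.8 CPM [30.4 to 35.4], 16.4-fold lower in the lymph node. Bracketed values are 95% intervals, exact Poisson for CPM and exact for the split of both counts for ratios, and they cover counting error only. Of all genes with 100 UMIs or more in one of the libraries, 9.42% were at least 2-fold lower and 2.01% at least 4-fold lower in lymph node cancer cells. The median log2 ratio of all 10740 genes was −0.19 and that of the 10 members −4.02. The count of 9 members is what the choice of genes was made on. It was 7 with ratios centred on the median of all genes (Gbp4 −1.99, Gbp6 −1.97) and as the mean over single cells (Gbp4 −1.83, Gbp6 −1.90), 8 with each library clustered on its own (Gbp6 −1.56) and 0 within cluster 4.

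Among the GBPs, Gbp2 stood at 128 CPM in the primary tumour (12398 UMIs) and 2.51 CPM in the lymph node (51 UMIs). Its log2 ratio of −5.66 [−6.10 to −5.27] was the 8th lowest of the genes tested. It was the largest fold difference of the 10 here, but Irgm2 came first with each library clustered on its own, with a gate on epithelial UMIs and within cluster 4, and Iigp1 in cluster 19 alone. Of the 51 lymph node UMIs of Gbp2, 15 came from 1 cell.

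Gbp7 stood at 64.9 and 4.03 CPM, 16.1-fold lower in the lymph node, from 6311 and 82 UMIs. Gbp5, which promotes assembly of the NLRP3 inflammasome, stood at 7.70 and 0.442 CPM, 17.4-fold lower, from 749 and 9 UMIs. Gbp5 was thus barely detected in lymph node cancer cells. Gbp4 stood at 24.1 and 5.31 CPM, 4.54-fold lower, and Gbp6 at 4.71 and 1.03 CPM, 4.57-fold lower. Gbp4 and Gbp6, both on chromosome 5, thus differed less between the libraries than Gbp2, Gbp5 and Gbp7 on chromosome 3, but more than Gbp3, which lies on chromosome 3 as well.

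Gbp3 was the most abundant member by UMIs in both libraries. It stood at 300.1 CPM [297 to 304] in the primary tumour (29177 UMIs) and 214 CPM [207 to 220.2] in the lymph node (4351 UMIs). Its log2 ratio of −0.49 [−0.54 to −0.44] was 3184th from the lowest of 10740 genes, although its gene lies between Gbp7 and Gbp2. Gbp3 gave 29177 of the 81593 member UMIs of primary tumour cancer cells and 4351 of the 5019 of lymph node cancer cells, so the sum over all 10 genes in the lymph node is mostly Gbp3.

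Among the IRG genes, the regulator Igtp stood at 119 CPM in the primary tumour (11558 UMIs) and 6.43 CPM in the lymph node (131 UMIs), 18.5-fold lower. The regulator Irgm2 stood at 53.6 and 1.57 CPM (5211 and 32 UMIs), 34.1-fold lower. Of these overlapping genes, Igtp had the higher level in both libraries. The effector Iigp1 stood at 97.8 and 4.22 CPM (9508 and 86 UMIs), 23.2-fold lower, and 24 of its 86 lymph node UMIs came from 1 cell. Several of these folds depend on the processing. Over the alternatives, leaving aside the comparison within cluster 4 given below, the log2 ratio ran from −7.90 to −3.25 for Iigp1, from −7.33 to −4.44 for Gbp2, from −5.22 to −3.40 for Gbp5, from −5.62 to −4.18 for Irgm2, from −5.01 to −3.63 for Igtp, from −4.47 to −3.51 for Gbp7 and from −2.95 to −1.56 for Gbp6. Irgm1, a regulator, stood at 40.0 and 7.27 CPM (3884 and 148 UMIs), 5.50-fold lower, the smallest fold of the 4. Summed, the IRG genes stood at 310.3 CPM [307 to 314] and 19.5 CPM [17.6 to 21.5].

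**Figure D1:**
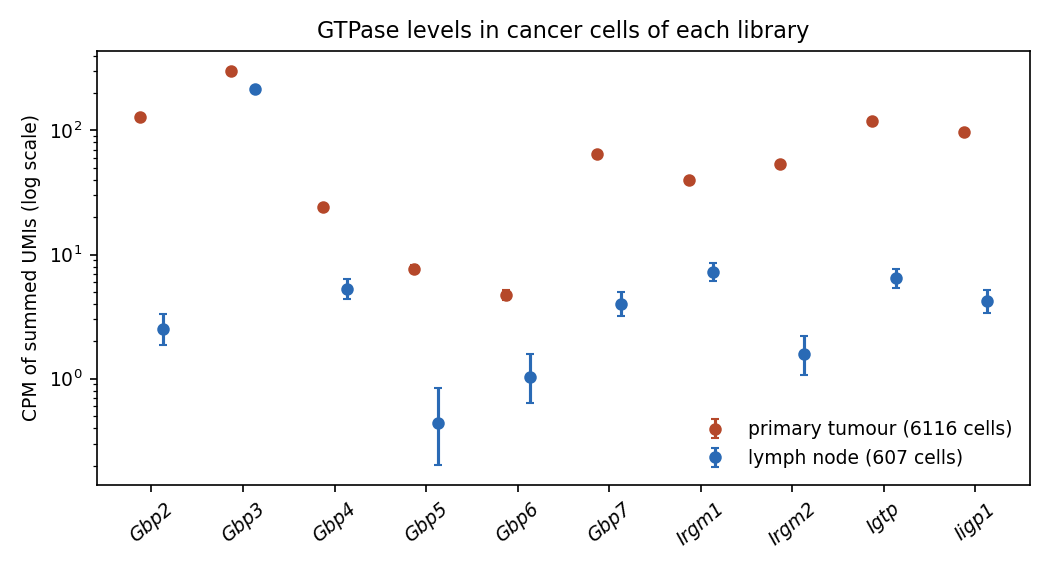
Level of each of the 10 genes in cancer cells, as CPM of summed UMIs on a log axis, in the primary tumour (red, 6116 cells) and the lymph node (blue, 607 cells). Bars are exact Poisson 95% intervals. Gbp3 lies near 300.1 and 214 CPM, whereas in the lymph node the other 9 genes lie at or below 7.27 CPM.

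The lymph node cancer cells differed among themselves. In the 510 cells of cluster 19 the 9 members without Gbp3 summed to 20.9 CPM [18.9 to 23.1], and in the 65 cells of cluster 4 to 149.7 CPM [131 to 171]. Cluster 4, led by Tff1, Foxq1 and Alb, was the only cluster with over 20 cancer cells from each library. One of its lymph node cells held 72 of the 221 UMIs of these 9 genes, and the other cells stood at 103 CPM. Of the 607 lymph node cancer cells, 304 held no UMI of the 9 genes.

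Within cluster 4 alone, the difference between the libraries was small. The 10 members stood at 595 CPM in the lymph node and 538 CPM in the primary tumour, a log2 ratio of 0.15 [0.05 to 0.25], and 0 of 10 members were at least 2-fold lower, beside 6.79% of 8915 genes. Without the lymph node cell named above, the log2 ratio of the 10 members was 0.01 and 2 members, Gbp2 (−1.77) and Irgm2 (−1.25), were at least 2-fold lower, beside 6.82% of all genes. The 9 members without Gbp3 stood at 149.7 and 168 CPM, a log2 ratio of −0.16 [−0.37 to 0.03], which was −0.71 without that cell. Iigp1 stood at 46.8 CPM in the lymph node and 29.6 CPM in the primary tumour (log2 ratio 0.67, 0.08 without that cell), and Gbp2 at 19.6 and 34.0 CPM (−0.77). Against all primary tumour cancer cells, cluster 19 alone gave log2 ratios of −7.90 for Iigp1 (7 UMIs), −7.33 for Gbp2 (14 UMIs) and −0.62 for Gbp3. Against all primary tumour cancer cells, the 9 members without Gbp3 had a log2 ratio of −4.69 in cluster 19 and of −1.98 [−2.15 to −1.81] in the 97 lymph node cancer cells outside it (−2.38 without that cell), of which cluster 4 gave −1.85 and −2.39. For the sum of these 9 members, the lymph node cells were thus lower than the primary tumour cells as a whole both in and outside cluster 19. Cluster 4 of the primary tumour is the cluster with the lowest level of this sum there. Gbp3 was instead higher in the 97 cells outside cluster 19 than in all primary tumour cancer cells, with a log2 ratio of 0.31 [0.20 to 0.41].

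Primary tumour cancer cells also differed by cluster. The 9 members without Gbp3 stood at 1409.8 CPM in cluster 10 (324 cells led by Cyp1a1, Serpinb9b and Sprr1a) and at 729.7 CPM in cluster 0 (1481 cells led by Cenpf and Ube2c, genes of cell division). They stood at 392 CPM in cluster 2 (2514 cells led by Elf3, Krt8 and Mt4), at 268 CPM in cluster 1 (618 cells with a median of 3803 UMIs) and at 168 CPM in cluster 4 (1178 cells). Each of the 9 was highest in cluster 10 and lowest in cluster 4. Gbp2 ran from 376 to 34.0 CPM and Iigp1 from 310.0 to 29.6 CPM between these clusters. Gbp3 was instead lowest in cluster 0, at 233 CPM, and highest in cluster 4, at 369.7 CPM.

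The members differed in their spread over single cells. Shares of cells were computed after thinning each cell to 5000 UMIs, which left out 721 primary tumour and 11 lymph node cancer cells, and they are expectations over all random draws. Gbp3 had a UMI in 74.1% [72.9 to 75.2] of primary tumour cancer cells (90.3% unthinned), where 80.1% would have one if every cell held the same share of Gbp3. Gbp2 had a UMI in 26.6% [25.5 to 27.8] (42.0% unthinned), against 45.4% if equal, and 10% of the cells held 66.3% of its UMIs. Most cells thus carried Gbp3, and a minority carried most of Gbp2.

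The variance over the mean of the thinned counts, which is near 1 for random sampling alone, was 4.17 for Gbp2, 3.07 for Iigp1, 2.01 for Igtp and 1.51 for Gbp3. It was between 1.09 and 1.47 for Gbp4, Gbp5, Gbp6, Gbp7, Irgm1 and Irgm2. These 6 genes had means of 0.0221 to 0.291 thinned UMIs per cell, against 1.62 for Gbp3 and 0.605 for Gbp2. The measure depends on the mean and stays near 1 for a rare gene even if its spread is uneven. It therefore does not rank members of different abundance by unevenness. Igtp had a UMI in 31.3% of cells, Iigp1 in 23.2%, Gbp7 in 21.1%, Irgm2 in 18.8% and Irgm1 in 16.0%. Gbp4, Gbp5 and Gbp6 had one in 8.98%, 3.12% and 2.09%. In lymph node cancer cells Gbp3 had a UMI in 61.4% [57.3 to 65.3] of cells and each of the others in 0.308% to 3.59%. Unthinned, the shares there were 96.2% for Gbp3 and 1.32% to 19.9% for the others. The lymphocyte genes Cd79a and Trbc2, which cancer cells should lack, had a UMI in 17.1% and 59.1% of unthinned lymph node cancer cells, and Cd79a in 0.589% of those of the primary tumour. Thinned in the same way as the members, Trbc2 had a UMI in 17.9% [14.9 to 21.3] of lymph node and 7.17% [6.50 to 7.89] of primary tumour cancer cells. Trbc2 is much more abundant in T cells than any of the members is in a class other than cancer cells, so its share is not a limit for theirs, and the shares of single cells with a member are not read as the part of cells that express it.

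Counted as distinct members per cell in 1 random draw of 5000 UMIs, 1897 of 5395 primary tumour cancer cells (35.2% [33.9 to 36.5]) held 3 or more, and 507 (9.40%) held none. In the lymph node 12 of 596 cells (2.01% [1.04 to 3.49]) held 3 or more, and 215 (36.1%) held none. At least 7 members were found in 137 primary tumour cells and in 1 lymph node cell. Of the 12 lymph node cells with 3 or more, 7 were in cluster 4, where they were 10.9% [4.51 to 21.2] of 64 cells, and 2 were in cluster 19, of 509 cells. In cluster 4 of the primary tumour the share was 9.54% [7.89 to 11.4] of 1132 cells. By cluster of the primary tumour, the share ran from 9.54% in cluster 4 to 80.1% in cluster 10, with 62.0% in cluster 0, 25.9% in cluster 2 and 20.5% in cluster 1.

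**Figure D2:**
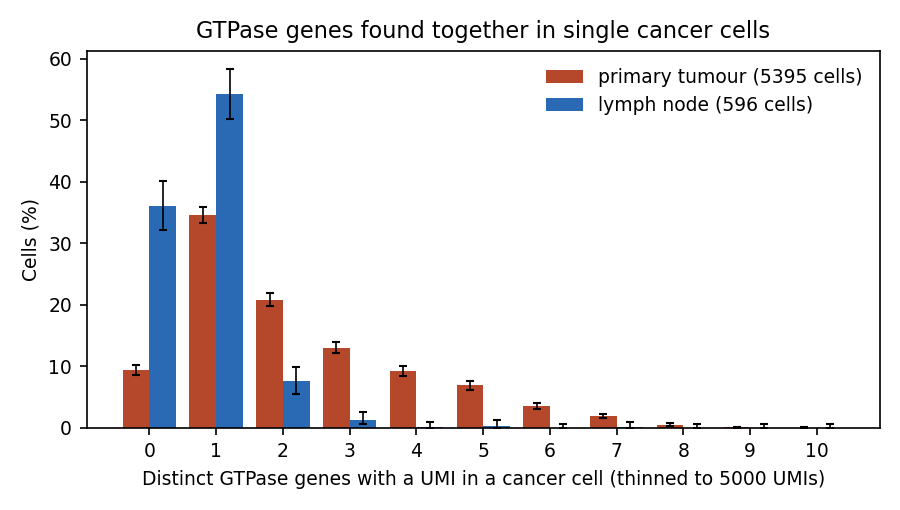
Share of cancer cells (%) by the number of distinct GTPase genes with a UMI after thinning to 5000 UMIs, in the primary tumour (red, 5395 cells) and the lymph node (blue, 596 cells). Bars are exact Clopper-Pearson 95% intervals. Most lymph node cells sit at 0 to 2 genes, with 12 of 596 at 3 or more, and the primary tumour has a tail up to 10 genes.

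Members other than Gbp3 were found together in primary tumour cancer cells more often than their separate shares would give. For the 36 pairs without Gbp3, the share of cells with both genes was 1.51 to 3.31 times the product of the 2 shares, with a median of 1.97. Within clusters the ratio was 1.26 to 2.39, with a median of 1.42, so part of it follows the clusters above. The highest pairs were Gbp5 with Gbp6 (3.31) and Gbp4 with Gbp5 (3.02), on 0.215% and 0.844% of cells, and the lowest was Gbp2 with Irgm1 (1.51). For the 9 pairs with Gbp3 the ratio was 0.99 to 1.07, with a median of 1.01, and within clusters 1.02 to 1.10. Since most cells held Gbp3, its ratio could not exceed 1.35, so it cannot be set against that of the other pairs. In the lymph node no pair without Gbp3 was found together in more than 3.59 cells on average over the draws, and the separate shares would give at most 0.628 cells, so the ratios could not be read there. These are descriptions over cells of 1 library, which share depth and free RNA.

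**Figure D3:**
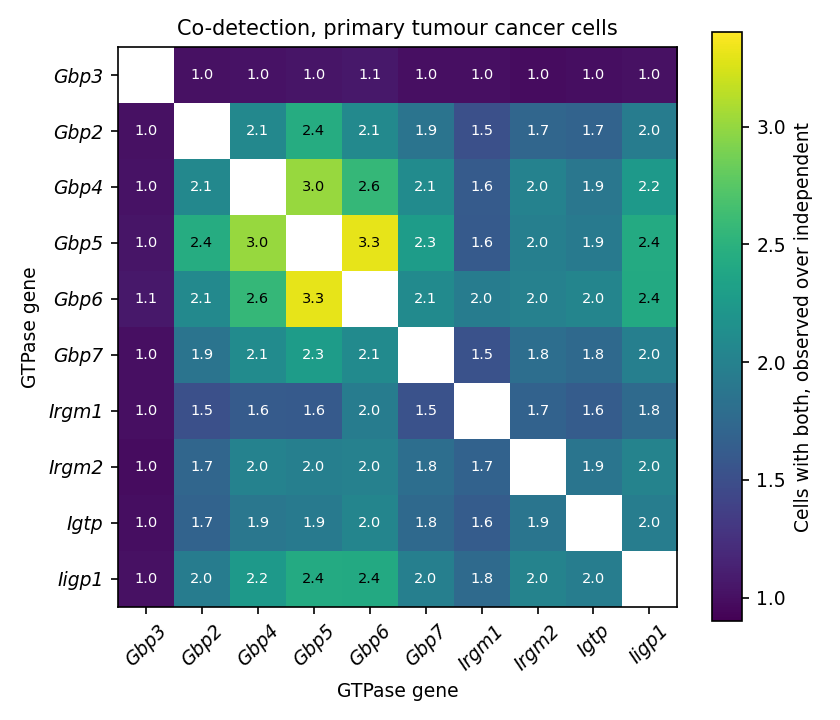
Share of primary tumour cancer cells with a UMI of both genes over the product of the separate shares, after thinning to 5000 UMIs (5395 cells). The row and column of Gbp3, whose ratio could not exceed 1.35, lie at 0.99 to 1.07, and the other pairs at 1.51 to 3.31.

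Cells with 3 or more members were then set beside cells with none for all other genes of the primary tumour cancer cells. The groups held 1897 and 507 cells, with medians of 19320 and 14524 UMIs before thinning. Of 8047 genes with at least 100 thinned UMIs, 5.78% were at least 2-fold higher in cells with 3 or more members, and the median log2 ratio of all genes was 0.29. Of the 8 other GBP and IRG genes tested, 6 were at least 2-fold higher. Gm4951, an IRG gene, stood at 27.2 against 1.97 CPM, F830016B08Rik, another, at 21.6 against 1.58 CPM, and Tgtp1 at 12.3 against 1.58 CPM. In the cells with no member these 3 genes rested on 4 or 5 UMIs each. The quasi-GTPase gene Irgq stood at 10.4 against 12.6 CPM.

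Of the interferon-gamma signalling genes reported here, the transcription factor gene Irf1 (225 against 83.6 CPM) and the feedback inhibitor gene Socs1 (27.5 against 10.7 CPM) were at least 2-fold higher. The receptor chains Ifngr1 (86.3 against 71.0 CPM) and Ifngr2 (48.9 against 53.3 CPM) and the kinases Jak1 (66.3 against 48.5 CPM) and Jak2 (85.3 against 81.7 CPM) differed little. Other interferon-gamma targets were at least 2-fold higher for 14 of 22 genes and type I interferon response genes for 12 of 14. Among them were the chemokine genes Cxcl9 (50.3 against 5.13 CPM) and Cxcl10 (107 against 18.9 CPM), Isg15 (50.9 against 9.47 CPM), Rtp4 (21.9 against 3.94 CPM) and Stat2 (73.8 against 13.8 CPM). The abundant B2m (1667 against 1242 CPM) and H2-D1 (846 against 621 CPM), genes of MHC class I, were under 2-fold. ATG8 conjugation genes were 2-fold higher for 0 of 10 and inflammasome genes for 1 of 4, Gsdmd.

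The 15 genes with the largest ratio also held Gm4841, Zfp213, Ubd, Ido1, Ccl2, Ifi203, Ifi207, Mndal, Cyp1a1, Il18bp and Batf2. Ubd, which encodes the ubiquitin-like FAT10, stood at 45.1 against 3.55 CPM, and the monocyte chemokine gene Ccl2 at 267 against 26.4 CPM. The genes with the lowest ratios were Tff1 (62.4 against 286 CPM), Apoe, Nes, Alb and Tff2, of which Tff1, Alb and Tff2 lead cluster 4. The proliferation gene Mki67 stood at 131 against 57.6 CPM, but at 249 against 258 CPM within cluster 0 and 6.91 against 5.88 CPM within cluster 2. Of the leukocyte genes, Ptprc had 31 against 3 UMIs and Lyz2 55 against 8. Cd74 (718 CPM) and Trbc2 (17.1 CPM) were more abundant than these over all primary tumour cancer cells. The part of leukocyte RNA in the ratios was not tested.

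Within cluster 2 alone (579 against 272 cells), 1.45% of 4818 genes were at least 2-fold higher. Of these lists, 11 of 18 other interferon-gamma targets and 6 of 9 type I genes were at least 2-fold higher there, with Cxcl10 at 102 against 4.41 CPM. Of the other GBP and IRG genes, 1 of 2 tested was at least 2-fold higher within cluster 2, 1 of 3 within cluster 0 and none could be tested within cluster 4. Within cluster 0 only 38 cells held no member, 4.95% of 5903 genes were at least 2-fold higher, and 4 of 18 interferon-gamma targets and 1 of 11 type I genes were among them. Irf1 stood at 159.5 against 94.7 CPM in that cluster. Within cluster 4 (108 against 153 cells), 0.749% of 2003 genes were at least 2-fold higher, with 6 of 10 other interferon-gamma targets and 1 of 3 type I genes among them. There Cxcl10 stood at 378 against 35.3 CPM and Irf1 at 320.4 against 61.4 CPM.

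**Figure D4:**
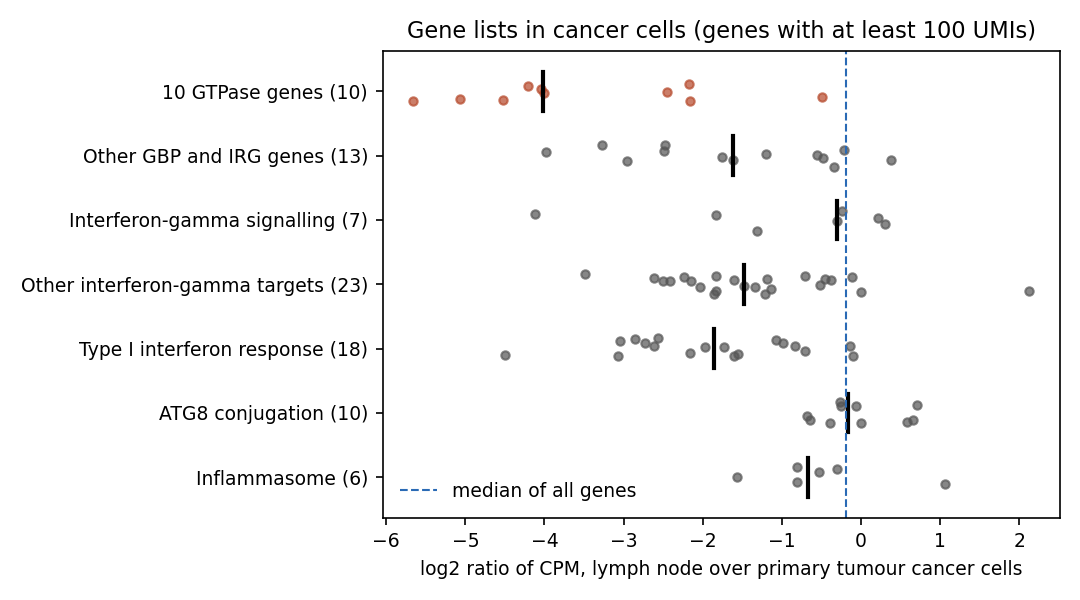
Log2 ratio of CPM between lymph node and primary tumour cancer cells for the 10 GTPase genes (red) and 6 gene lists (grey), with 1 point per gene that had 100 UMIs or more in one of the libraries. Black bars are list medians and the dashed line is the median of all genes (−0.19). The GTPase genes have the lowest median (−4.02), and the ATG8 conjugation genes lie around the line (median −0.16).

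The same lists were set between the libraries in cancer cells. Interferon response genes being lower there is what the 10 members were chosen on, so these lists too are a description, to be read beside the 9.42% of all genes that were at least 2-fold lower. Of 13 other GBP and IRG genes tested, 8 were at least 2-fold lower in the lymph node, with a median log2 ratio of −1.62 against −0.19 over all genes. They included Gm4951 (13.5 CPM in the primary tumour and 0.835 CPM in the lymph node), F830016B08Rik (10.2 and 1.03 CPM) and Tgtp2 (3.63 and 0.442 CPM). The most abundant, 9930111J21Rik2 (40.3 and 31.7 CPM) and Ifi47 (27.7 and 12.0 CPM), were 1.27-fold and 2.30-fold lower. Gbp8 (6.52 and 4.67 CPM) and Gbp9 (6.54 and 4.42 CPM), which overlap Gbp4 and were named after their values were seen, were less than 2-fold lower.

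Irf1 stood at 143 CPM in the primary tumour and 57.4 CPM in the lymph node, and Socs1 at 18.2 and 5.11 CPM. The receptor and kinase genes differed less, with Ifngr1 at 78.9 and 97.5 CPM, Ifngr2 at 46.3 and 39.3 CPM, Jak1 at 61.0 and 70.6 CPM and Jak2 at 81.5 and 66.2 CPM. For Ifng itself, primary tumour cancer cells held 52 UMIs (0.535 CPM) and lymph node cancer cells 0. The interval of its log2 ratio, which covers counting error only, reached up to −1.51. Whether these Ifng UMIs are free RNA from other cells was not tested, so they are not read as expression by cancer cells. Irf1 and Socs1 were thus at least 2-fold lower, and the receptor and kinase genes were within 2-fold.

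Other interferon-gamma targets were at least 2-fold lower for 16 of 23 genes and higher for 1 (median −1.47), and type I interferon response genes were lower for 13 of 18 (median −1.85). The lowest of the former were Ciita (6.86 and 0.589 CPM), the master regulator of MHC class II, and the antigen processing genes Psmb9 (122 and 19.9 CPM) and Tap1 (109 and 19.3 CPM). B2m stood at 1409 and 619 CPM, H2-D1 at 733 and 678 CPM and Cd74 at 718 and 285 CPM, and the 1 gene higher was H2-K1 (8.46 and 36.8 CPM). Of the type I genes, Ifi44 (20.5 and 0.884 CPM), Oasl2 (41.2 and 4.86 CPM) and Rtp4 (11.9 and 1.42 CPM) had the lowest ratios, and the abundant Bst2 stood at 547 and 180.2 CPM. Of the 10 genes for ATG8 proteins and their conjugation, which IRG and GBP proteins need to reach vacuoles, 0 were 2-fold lower or higher (median −0.16), with Gabarap at 437 and 436 CPM. Of 6 inflammasome genes, Casp4 was 2.98-fold lower (26.2 and 8.79 CPM) and Pycard was higher (1.20 and 2.51 CPM). Casp1, Aim2, Nlrp3 and Gsdmd were less than 2-fold lower.

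In the other cells, levels are CPM of the summed UMIs of a class, for classes with at least 20 cells. The part of free RNA from cancer cells in these levels and their order was not tested. In the primary tumour, cancer cells held 92.9% of the 87821 member UMIs of kept cells, close to their 91.8% of all UMIs, and their CPM was within the range of the other classes. Summed over the 10 genes, dendritic cells stood at 1092 CPM (36 cells), endothelial cells at 954 CPM (46 cells) and fibroblasts at 865 CPM (174 cells). Neutrophils stood at 731 CPM (311 cells), monocytes and macrophages at 663 CPM (1369 cells), T cells at 646 CPM (581 cells) and natural killer (NK) cells at 366 CPM (28 cells). One cell of the neutrophil class held 104 member UMIs, 37.5% of those of the class, and without it the class stood at 506 CPM. The median cell of this class had 730 UMIs of all genes, and whether the cell named is a neutrophil was not tested.

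The lymph node classes were lower. Monocytes and macrophages stood at 325 CPM (52 cells), T cells at 281 CPM (3697 cells), endothelial cells at 268 CPM (192 cells), NK cells at 221 CPM (58 cells) and dendritic cells at 190.2 CPM (146 cells). Plasmacytoid dendritic cells at 74.3 CPM (57 cells), B cells at 67.9 CPM (4616 cells), plasma cells at 54.7 CPM (101 cells) and neutrophils at 41.0 CPM (39 cells, 4 UMIs) were the lowest. Without Gbp3, cancer cells at 32.8 CPM lay below B cells at 50.4 CPM. The endothelial cells of this library were led by Glycam1 and Fut7, genes of high endothelial venules, and the labels name no sort for it.

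**Figure D5:**
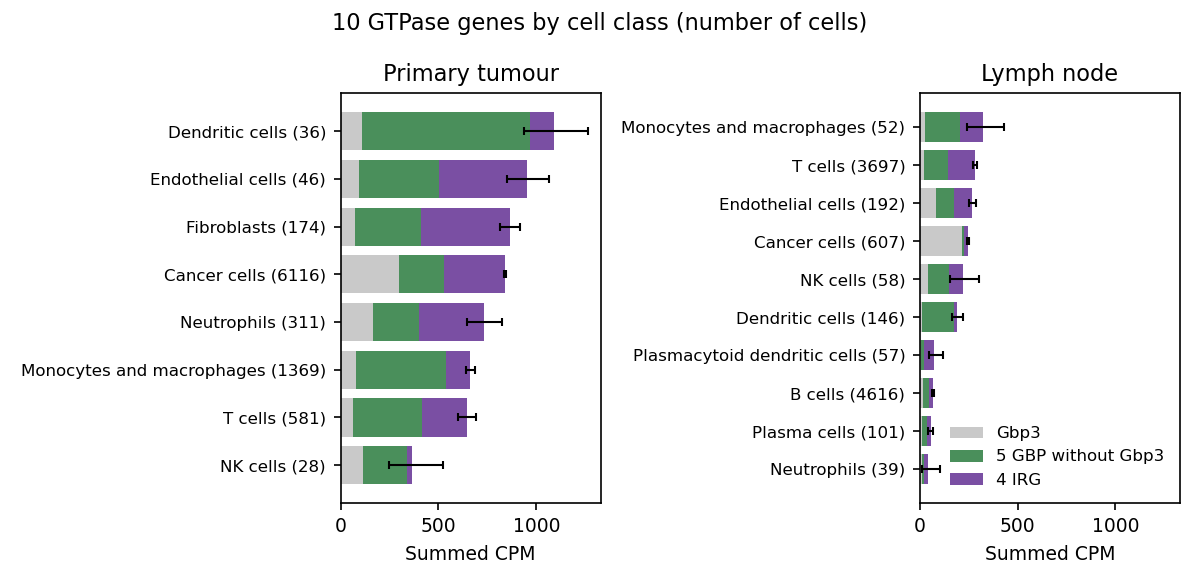
Summed CPM of the 10 genes by cell class in the primary tumour (left) and the lymph node (right), split into Gbp3 (grey), the other 5 GBPs (green) and 4 IRGs (purple). Numbers of cells are in parentheses and bars are exact Poisson 95% intervals of the sum. Gbp3 fills most of the bar of lymph node cancer cells and little of the bars of dendritic cells.

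The classes of the primary tumour used different members. Gbp2 was highest in dendritic cells of the primary tumour at 494 CPM [391 to 614], above fibroblasts at 226 CPM and monocytes and macrophages at 219 CPM, which did not differ beyond their intervals. Gbp5 was also highest in these dendritic cells, at 167 CPM, against 7.70 CPM in cancer cells, the lowest class. IRG genes gave 123 of the 1092 CPM of dendritic cells. Iigp1 was highest in fibroblasts at 318 CPM and endothelial cells at 306 CPM, whose intervals overlapped, against 97.8 CPM in cancer cells. Irgm1 was highest in endothelial cells at 84.2 CPM, overlapping fibroblasts at 52.2 CPM.

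Also in the primary tumour, T cells led for Gbp4 at 131 CPM and Gbp7 at 134 CPM, each overlapping the next class. Igtp was highest there in neutrophils (137 CPM), T cells (119.8 CPM) and cancer cells (119 CPM), whose neighbouring intervals overlapped. Without the cell named above, the neutrophil class stood at 108 CPM for Igtp, below T cells and cancer cells, at 32.2 CPM for Irgm2 and at 99.5 CPM for Gbp3. Irgm2 was highest in the cancer cells of the primary tumour at 53.6 CPM, overlapping neutrophils at 39.6 CPM, whereas in the lymph node its level in cancer cells was 1.57 CPM. Gbp3 was highest in cancer cells of both libraries, at 300.1 CPM above neutrophils (164 CPM [126 to 210]) in the primary tumour and at 214 CPM above endothelial cells (81.7 CPM [72.9 to 91.3]) in the lymph node. Gbp3 was thus the member whose level was highest in cancer cells in both tissues, with no overlap with the next class. Gbp6 did not exceed 12.9 CPM in any class.

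In 5 of the 6 other classes present in both libraries, the sum of the members was lower in the lymph node beyond counting error. The log2 ratio was −2.52 [−2.82 to −2.22] in dendritic cells, −1.84 [−2.02 to −1.64] in endothelial cells and −1.20 [−1.31 to −1.09] in T cells. It was −1.02 [−1.47 to −0.62] in monocytes and macrophages, −3.99 [−6.04 to −2.79] in neutrophils (4 lymph node UMIs) and −0.73 [−1.46 to 0.02] in NK cells. Different clusters made up most of the endothelial, dendritic and T cells in the 2 libraries, so tissue and cell state cannot be told apart in their ratios. Monocytes and macrophages (cluster 8), neutrophils (cluster 6) and NK cells (cluster 17) came mostly from the same cluster in both. Endothelial cells were cluster 7.1, led by Igfbp3 and Fabp4, in the primary tumour and cluster 21, led by Glycam1, in the lymph node. Dendritic cells were mostly cluster 5.0, led by Ccl22 and Fscn1, in the primary tumour (1119 CPM), and clusters 5.5 (96 cells, 305 CPM) and 5.3 (40 cells with Xcr1 and Clec9a, 30.0 CPM) in the lymph node. Lymph node T cells were mostly of clusters 13 and 14 and primary tumour T cells of cluster 3, led by Cxcr6 and Cd8a. Cluster 9, led by Tnfrsf4 and with Foxp3 among its top genes, was in both libraries, and its 52 primary tumour cells stood at 1325 CPM and its 525 lymph node cells at 355 CPM.

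Among the 5 members with 100 UMIs or more in endothelial cells of one of the libraries, Iigp1 had the largest difference, at 306 CPM in the primary tumour and 30.0 CPM in the lymph node (log2 ratio −3.35 [−3.75 to −2.94]). Gbp3 differed little there, at 93.5 and 81.7 CPM (−0.22 [−0.74 to 0.40]). Of 4655 genes tested in endothelial cells 15.6% were at least 2-fold lower in the lymph node, and 4 of the 5 members tested were. Of 4956 genes in monocytes and macrophages 13.5% were, and 3 of 8 members. Of 7261 genes in T cells 19.8% were, and 5 of 9 members.

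In T cells, Irgm1 (44.2 and 10.6 CPM, log2 ratio −2.07), Gbp7 (134 and 34.8 CPM, −1.95), Gbp4 (131 and 37.7 CPM, −1.80) and Gbp3 (64.3 and 22.3 CPM, −1.54) were lower in the lymph node. Igtp stood at 119.8 and 87.7 CPM (−0.45 [−0.70 to −0.19]). Igtp was the smallest difference in T cells, whereas in cancer cells it was 18.5-fold. In monocytes and macrophages the IRG sum stood at 124 CPM in the primary tumour and 119 CPM in the lymph node (18 UMIs, log2 ratio −0.02 [−0.82 to 0.62]), and the GBP sum at 539 and 205 CPM (−1.37 [−1.95 to −0.88]).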

How the data were processed

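Per the file headers, the authors counted UMIs per gene and cell with Cell Ranger 5.0.0 on GRCm38, whereas the submitters' processing notes name Cell Ranger 2.1.1. The deposited values are raw counts of UMIs. Cells with over 200 and up to 6000 genes and at most 5% mitochondrial UMIs were kept, after the study's limits, and doublets scored by Scrublet (scanpy 1.11.5) were removed. Its automatic call marked 0 lymph node cells, and there the cells scoring over percentile 94 were taken out instead. This left 70.5% and 83.4% of cells, primary tumour first. Both libraries were clustered together (Leiden, igraph 0.11.9), with the members and the interferon lists left out, and clusters were named from markers. The study's Harmony, DoubletFinder and inferCNV steps were not repeated, so classes can differ from those of the study. Levels are summed UMIs per 1000000 (CPM), and 0.5 counts were added for log2 ratios. The text names all members, short lists, the most abundant and most different genes of long lists, and the 15 genes that differed most between cells with 3 or more members and cells with none. Members and lists were chosen with earlier results of these data known. Alternatives covered cell limits, doublets, clustering, thinning, gene filters and scaling. The scripts were tested on simulated data. Some list genes are not reported here.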

Additional observations from a re-analysis of the deposited data

Results flagged for a closer look

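Cells that the limits left out also held member RNA, above the limit that a count of 0 allows. Outside the alternative limits on cells, they enter no comparison above. In the primary tumour, 874 cells with over 6000 detected genes stood at 868 CPM for the 10 GTPases, and 2280 cells with over 5% mitochondrial UMIs stood at 1012 CPM. In the lymph node, 971 cells with over 6000 genes stood at 182 CPM, and 328 cells with over 5% mitochondrial UMIs stood at 377 CPM.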

How the results depend on the processing

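Of 165 log2 ratios under alternatives, 144 in cancer cells (12 ratios under 12 alternatives) and 21 in other classes, 160 stayed below 0, and the 5 that reversed were those within cluster 4. The alternatives on cluster 4, on cluster 19, without shared barcodes and without 1 cell of the neutrophil class were chosen after seeing the data. No alternative adds a replicate. Within cluster 4 the 10 members had a log2 ratio of 0.15, Gbp3 0.27, Gbp5 0.56, Gbp6 0.75 and Iigp1 0.67, and 0 members were at least 2-fold lower. Gbp5 and Gbp6 rested on 3 and 4 lymph node UMIs. Without the lymph node cell with most member UMIs, an alternative also chosen after seeing the data, these ratios were 0.01, 0.25, 0.58, −0.81 and 0.08, and 2 members were at least 2-fold lower.

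The log2 ratio of the 10 members was −2.04 with no upper limit on genes, −1.48 with each library clustered on its own, −1.72 with a gate on epithelial UMIs, −1.59 as the mean over single cells, −1.58 centred on the median of all genes and −1.95 in cluster 19. Centring, a shift of −0.19, left 9 members at least 2-fold lower. In the same order without centring, the lymph node level was 204, 299, 254, 269 and 217 CPM, and 595 CPM in cluster 4. The primary tumour level was 863 CPM with a 10% mitochondrial limit, 811 CPM as the mean over single cells and 538 CPM in cluster 4. Genes at least 2-fold lower were 12.1% with own clustering, 6.31% centred, 10.6% at 20 UMIs, 8.16% at 500 UMIs, 10.9% in cluster 19 and 6.79% in cluster 4.

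Lymph node cancer cells with 3 or more members were 3.74% with own clustering, 0.499% thinned to 2000 UMIs, 18.5% without thinning, 0.393% in cluster 19 and 10.9% in cluster 4. In the primary tumour they were 37.0% with no upper limit on genes, 14.3% at 2000 UMIs, 56.4% at 10000 UMIs, 54.5% without thinning and 9.54% in cluster 4. Median co-detection without Gbp3 was 1.85 with no upper limit, 2.00 with the 10% limit, 1.95 with doublets kept, 2.26 at 2000 UMIs, 1.63 at 10000 UMIs, 1.83 without thinning and 3.60 in cluster 4. Genes at least 2-fold higher with 3 or more members were 2.15% at 2000 UMIs, 8.55% at 10000 UMIs and 14.1% without thinning.

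For other classes, the log2 ratio in T cells was −1.37 with no upper limit, −1.79 with own clustering and −1.45 over single cells. In endothelial cells it was −2.03 with own clustering and −2.18 over single cells, in monocytes and macrophages −1.50 with the 10% limit, and in dendritic cells −2.11 over single cells. The 10% limit gave no value for dendritic and endothelial cells and own clustering none for dendritic cells, since under 20 cells were left. The cause of these shifts was not tested. Members other than Gbp3 had 9 to 148 UMIs each in lymph node cancer cells, which limits the precision of their ratios. No paired analysis was possible because each tissue is 1 pooled library.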

Other observations

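Over the 14 combinations of class and library with at least 50 cells, the genes whose log2(CPM + 1) went most closely with the mean of the 10 members were Oas3 (Pearson r = 0.907), Mex3c (0.891), Gm4951 (0.882), Pdcd6ip (0.862), Xdh (0.858), Dtx4 (0.857), Sntb2 (0.847), Noct (0.846), Parp10 (0.845) and Alg10b (0.829). Among the members themselves, r with the mean of the others ran from 0.519 for Gbp4 and 0.532 for Gbp3 to 0.850 for Gbp7. The points share 2 libraries and differ in depth, so these values are a description.

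Of all lymph node cells kept, cancer cells held 84.3% of Gbp3 UMIs but 3.78% of Gbp5 and 6.48% of Gbp2 UMIs, beside 40.5% of all UMIs. In the primary tumour they held 97.4%, 64.3% and 88.4% of the UMIs of these genes, beside 91.8% of all UMIs, and monocytes and macrophages held 26.9% of Gbp5 UMIs. Cells removed as doublets stood at 797 CPM for the 10 members in the primary tumour (391 cells) and 202 CPM in the lymph node (616 cells).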
